A study of Mus musculus with 6 samples.

Results

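Lens transcription factors are the regulatory proteins that specify the lens and later keep its epithelial and fiber cells distinct. The set described here holds Pax6, Six3, Meis2, Tfap2a, Sox2, Sox1, Foxe3, Pitx3, Maf and Prox1. They were chosen by name for their roles in lens epithelium and lens fibers and not by a threshold on their values. Earlier results of these data were known when they were chosen. All 10 were found, among 24147 gene rows in the deposited tables. RNA was sequenced from the lens capsule and the epithelial cells attached to it in wild type C57BL/6 mice aged 2 months. Fiber cells had been removed through the cornea as a model of cataract surgery, and tissue was taken 24 h after the operation (3 libraries) or immediately after it (0 h, 3 libraries). Every library came from operated tissue, so the 0 h group is a freshly operated lens and not an intact one. The series describes biological triplicates, but how many animals or eyes went into each library was not stated, so p-values measure the spread between these libraries.

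In the vertebrate eye, Pax6, Six3 and their partners first give the surface ectoderm its competence to form a lens. Foxe3 then maintains the proliferating epithelium at the front of the lens, while Maf, Prox1 and Sox1 act as cells at the equator leave the cell cycle, elongate and switch on crystallin genes. Mutations in Pax6, Foxe3, Pitx3 or Maf cause cataract or malformed anterior segments in mice and people. The epithelial cells that stay on the capsule after cataract surgery can divide, migrate or take on fiber-like or myofibroblast-like features. The comparison of 24 h with 0 h addresses how their transcriptome differs a day after the operation.

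The libraries held 8069314 to 9249248 summed gene counts at 24 h and 8734906 to 10862573 at 0 h. Lens RNA was abundant, as the label of the tissue states. The alpha-crystallin gene Cryaa stood at 46170 ± 4955 CPM (gene counts scaled to library totals corrected by the TMM method, mean ± SD, n = 3) at 24 h and at 88070 ± 22743 CPM (n = 3) at 0 h, a difference that missed the threshold used below (adjusted p = 0.0746). Crystallin genes together took 6.92% to 8.72% of counts at 24 h and 12.9% to 20.2% at 0 h. All 12 markers listed for lens epithelium passed the low-count filter. Of them 4 were called lower (Cryab, Slc38a3, Fgfr3 and Npnt), 1 higher (Jag1) and 7 were not called. That is 33.3% lower, against 13.0% of all genes tested. The log2 fold change was below 0 for 11 of the 12, with a median of -0.72, against -0.03 over all genes tested. Pdgfra, which was not called, had a log2 fold change of -1.22. Among those not called, the adhesion gene Cdh1 averaged 363 ± 54.6 CPM at 24 h, against 380.1 ± 73.6 CPM at 0 h (log2 fold change -0.07, adjusted p = 0.833), and the gap junction gene Gja1 averaged 738 ± 204 CPM at 24 h, against 815 ± 177 CPM at 0 h (log2 fold change -0.14, adjusted p = 0.713). Retinal RNA was present too, and its level differed between libraries of the same time. The summed level of 18 photoreceptor and retina markers was 5537, 6768 and 3066 CPM in replicates 1, 2 and 3 at 24 h, against 6021, 8959 and 3859 CPM in replicates 1, 2 and 3 at 0 h. Pax6, Six3, Meis2, Sox2, Tfap2a and Prox1 are also expressed in retina, ciliary epithelium or cornea, and these libraries do not separate the sources. Ribosomal RNA assigned to Rn45s took 5.0% to 15.4% of counts at 24 h, highest in replicate 1, and 2.44% to 3.45% at 0 h.

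The promoter of Foxe3 is shown because that gene fell most. Those of Sox2 and Pax6 (downstream start) hold the most sequence patterns of the members' own families, 4 and 2. Other member promoters, not shown, hold 1 or 0. Each is the RefSeq sequence (GRCm38.p6, the assembly that mm10 names) from 250 bases before to 50 bases after an annotated start, on the gene's strand. Capitals mark matches to any of 8 short patterns, and a sequence with no capitals holds none of them.
Foxe3, chr4:114926018-114926317, minus strand: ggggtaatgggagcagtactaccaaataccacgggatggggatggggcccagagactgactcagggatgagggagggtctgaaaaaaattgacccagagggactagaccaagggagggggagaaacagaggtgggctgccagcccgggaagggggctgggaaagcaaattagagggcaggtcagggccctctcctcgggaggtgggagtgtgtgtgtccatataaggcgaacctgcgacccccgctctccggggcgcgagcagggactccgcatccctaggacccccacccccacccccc
Sox2, chr3:34649745-34650044, plus strand: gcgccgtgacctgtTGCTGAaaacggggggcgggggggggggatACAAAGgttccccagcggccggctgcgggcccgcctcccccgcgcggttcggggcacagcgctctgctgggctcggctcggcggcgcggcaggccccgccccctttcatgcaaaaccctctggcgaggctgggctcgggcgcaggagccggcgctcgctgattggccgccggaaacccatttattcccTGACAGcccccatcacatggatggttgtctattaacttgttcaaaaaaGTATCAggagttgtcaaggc
Pax6, downstream start, chr2:105682213-105682512, plus strand: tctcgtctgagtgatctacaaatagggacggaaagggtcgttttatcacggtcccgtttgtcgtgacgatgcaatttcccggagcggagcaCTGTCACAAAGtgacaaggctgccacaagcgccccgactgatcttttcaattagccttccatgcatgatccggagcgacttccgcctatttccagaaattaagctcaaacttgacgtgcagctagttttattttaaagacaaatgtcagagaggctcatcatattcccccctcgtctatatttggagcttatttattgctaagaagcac

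The patterns were ACAAAG for SOX proteins, GTAAACA for forkhead proteins, GGATTA for PITX proteins, TGACAG for MEIS proteins, GCCNNNGGC for AP-2, TGCTGA for large Maf proteins, TGATAC for relatives of Six3 and TTCACGC for the paired domain of Pax6, each searched on both strands. RefSeq promoters were found for 9 of the 10 members, with 12 entries, because Pax6, Prox1 and Tfap2a have a pair each. The Sox2 promoter held the SOX, MEIS, Maf and Six3-type patterns. In the downstream Pax6 promoter the SOX pattern and the MEIS pattern on the opposite strand share a base. The SOX pattern was in 3 of the 12 member promoters (those of Pax6, Prox1 and Sox2) and in 18.7% of 32851 promoters, and the MEIS pattern was in 3 (those of Pax6, Six3 and Sox2) and in 19.2% of all. The AP-2 pattern was in 2, those of Pax6 and Pitx3, and in 16.6% of all. The Maf and Six3-type patterns were each in 1, that of Sox2, and in 19.5% and 5.46% of all. The forkhead, PITX and Pax6 patterns, present in 3.65%, 7.06% and 1.26% of all promoters, were in none of the 12. A match describes these letters only and is not evidence of binding.

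At 24 h, 8 of the 10 factors were lower than at 0 h and 0 were higher. Among all 13956 genes tested, 13.0% were called lower and 15.2% higher, 28.2% in all (edgeR quasi-likelihood test, Benjamini-Hochberg adjusted p under 0.05). All 10 members passed the low-count filter, with 194 to 4836 counts in a library. Foxe3, Maf and Prox1 fell by a factor of at least 2, which 6.59% of all genes did with a call, and Pitx3 came next. Sox1, Sox2, Meis2 and Six3 fell by smaller amounts, and Pax6 and Tfap2a did not pass the threshold. For 9 of the 10 all 24 h libraries lay below all 0 h libraries, which was so for 21.8% of all genes (44.7% with either direction), and Tfap2a alone overlapped. The median log2 fold change over the 10 was -0.65, against -0.03 over all genes tested. In such bulk samples fewer lens cells in a library and less RNA of a gene per lens cell cannot be told apart. Of the 12 lens epithelium markers given above, 11 had log2 fold changes below 0 (median -0.72), and the part of lens cell number was not tested. The count of 8 was 4 without 24 h replicate 1, 3 without 0 h replicate 1, 5 without 0 h replicate 2, 4 without 0 h replicate 3, 5 with library totals as the only scaling and 2 when tested against a 1.5-fold change, by which 4.51% of all genes were called lower.

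**Figure D1:**
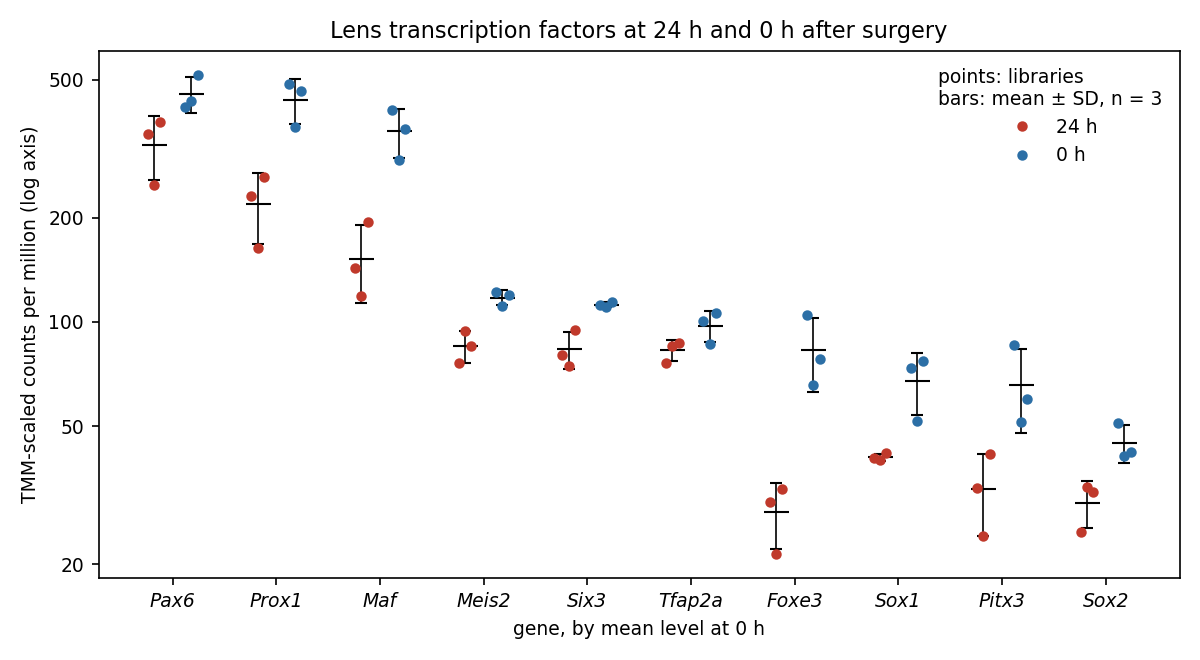
TMM-scaled CPM (log axis) of each of the 10 factors, with a point for each library at 24 h (red, left) and 0 h (blue, right) and bars for mean ± SD (n = 3). The 24 h points lie below the 0 h points for every gene but Tfap2a, whose 24 h libraries reach 87.0 CPM while its lowest 0 h library is at 86.2 CPM.

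Foxe3 encodes a forkhead factor of the lens epithelium that is needed for its proliferation and for the lens vesicle to separate from the cornea. It is a gene with 1 exon (mm10 chromosome 4, 114925147 to 114926013, minus strand). It had 30.3, 21.5 and 33.1 CPM at 24 h, against 105, 66.0 and 78.0 CPM at 0 h. Every 24 h library lay at or under 33.1 CPM and every 0 h library at or above 66.0 CPM. The log2 fold change was -1.55 ± 0.22 (SE), with a 95% interval of -2.06 to -1.05 and an adjusted p of 0.00145, a 2.94-fold fall. By mean CPM Foxe3 exceeded 56.2% of the genes tested at 24 h and 83.8% of them at 0 h. It was called lower under all 15 alternative settings, with adjusted p from 2.27e-08 to 0.00709.

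Maf, a large bZIP protein that activates crystallin genes in elongating fibers (chromosome 8, 115703253 to 115706894, minus strand), had 143, 119 and 195 CPM at 24 h, against 409, 293 and 361 CPM at 0 h. The highest 24 h library was well below the lowest 0 h library. Maf fell 2.33-fold, a log2 fold change of -1.22 ± 0.22 (SE, adjusted p = 0.00388), and this call too was kept under all 15 alternatives. Prox1, a homeodomain protein of the prospero type that is required for fiber elongation and cell cycle exit (chromosome 1, 190121777 to 190170680, minus strand), had 231, 163 and 262 CPM at 24 h, against 485, 364 and 463 CPM at 0 h. Its 2.00-fold fall (adjusted p = 0.00835) was lost only when tested against a 1.5-fold change (adjusted p = 0.0821).

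Pitx3 is a bicoid-type homeodomain factor, and its deficiency leaves aphakia mice without a lens (chromosome 19, 46135686 to 46148325, minus strand). It had 33.1, 24.1 and 41.6 CPM at 24 h, against 85.9, 51.4 and 59.9 CPM at 0 h, so that the groups did not overlap but the 0 h libraries were spread widely. It fell 2.00-fold (SE 0.25 on the log2 scale, adjusted p = 0.0175). Leaving out 24 h replicate 1 raised the adjusted p to 0.0530, and leaving out 0 h replicate 1 raised it to 0.0674, which ended the call. Its adjusted p was 0.13 when tested against a 1.5-fold change and ran from 0.00225 to 0.0674 over the other alternatives.

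Sox1 and Sox2 are closely related HMG-box proteins of the SOXB1 group, each encoded by 1 exon. Sox2 marks lens competence and works with Pax6 on lens enhancers in the chick, while Sox1 binds gamma-crystallin promoters and its loss in mice stops fiber elongation. Sox1 (chromosome 8, 12395519 to 12399555, plus strand) had 40.4, 39.9 and 41.9 CPM at 24 h, against 73.7, 51.8 and 77.2 CPM at 0 h. The 24 h libraries lay within 2 CPM of each other. Sox1 fell 1.66-fold (log2 fold change -0.73 ± 0.17 SE, adjusted p = 0.0130), a call that ended when 0 h replicate 1 (adjusted p 0.0510) or, in another fit, 0 h replicate 3 (adjusted p 0.0575) was left out. Its adjusted p was 0.33 when tested against a 1.5-fold change and ran from 0.00298 to 0.0575 over the other alternatives. Sox2 (chromosome 3, 34650005 to 34652460, plus strand) had 24.8, 33.3 and 32.2 CPM at 24 h, against 51.2, 41.0 and 42.2 CPM at 0 h, a 1.49-fold fall (log2 fold change -0.57 ± 0.17 SE, adjusted p = 0.0351). That call held without 24 h replicate 2 and was lost when any other single library was left out. The adjusted p of Sox2 was 0.753 when tested against a 1.5-fold change and ran from 0.0291 to 0.127 over the other alternatives.

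Pax6, Six3, Meis2 and Tfap2a belong to the network that sets up the lens field. Pax6, the paired-box and homeodomain factor required for eye formation (chromosome 2, 105668896 to 105697364, plus strand), had 348, 248 and 377 CPM at 24 h, against 416, 433 and 516 CPM at 0 h. Its groups did not overlap, but 24 h replicate 2 lay far below the other 24 h libraries, and Pax6 did not pass the threshold (log2 fold change -0.49, 95% interval -0.93 to -0.05, adjusted p = 0.0946). With the mean log2 CPM of the photoreceptor and retina markers as a covariate Pax6 was called lower (adjusted p = 0.0231). Its adjusted p was 0.936 when tested against a 1.5-fold change and ran from 0.0231 to 0.297 over the other alternatives. Six3, a homeodomain factor that activates Pax6 in the lens ectoderm of mice (chromosome 17, 85620834 to 85626191, plus strand), had 80.4, 74.9 and 94.7 CPM at 24 h, against 112, 111 and 114 CPM at 0 h. The 0 h libraries were close together and all above the 24 h ones, and Six3 fell 1.35-fold (adjusted p = 0.0422).

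Meis2, a TALE homeodomain protein that binds an upstream lens enhancer of Pax6 (chromosome 2, 115861264 to 116065058, minus strand), had 76.0, 94.2 and 85.0 CPM at 24 h, against 122, 111 and 119.6 CPM at 0 h. The groups lay apart, and Meis2 fell 1.38-fold (adjusted p = 0.0304). Both calls depended on single libraries. Six3 was called with 1 library left out only when that library was 24 h replicate 3, and Meis2 only when it was 24 h replicate 2. With 1 library left out the adjusted p reached 0.148 for Six3 and 0.131 for Meis2. The lowest adjusted p over the alternatives was 0.0207 for Six3 (retinal covariate) and 0.0164 for Meis2 (DESeq2). The calls of Six3, Meis2 and Sox2 were also lost with library totals as the only scaling and against a 1.5-fold change, and that of Six3 without the low-count filter or with crystallins left out. Tfap2a, the AP-2 alpha factor of lens placode and epithelium (chromosome 13, 40715675 to 40733823, minus strand), had 76.3, 85.4 and 87.0 CPM at 24 h, against 100.5, 86.2 and 106 CPM at 0 h. Its log2 fold change was -0.23, with a 95% interval of -0.54 to 0.07 (adjusted p = 0.232), so a fall of up to 0.54 on the log2 scale lies within its interval.

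**Figure D2:**
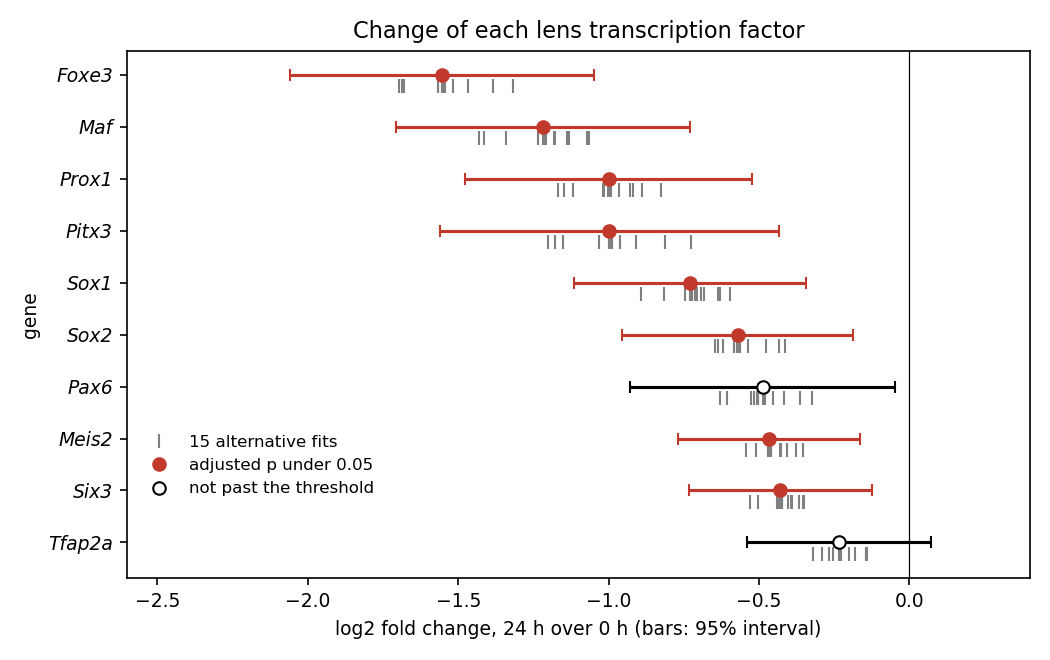
Log2 fold change of each factor at 24 h over 0 h with its 95% interval, filled red where the adjusted p was under 0.05 and open where it was not, and grey ticks for the 15 alternative fits. All ticks lie below 0, and the estimates run from -1.55 for Foxe3 to -0.23 for Tfap2a.

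The libraries of a time differed from each other in the same way for many of the factors. The lowest of the 3 libraries at 24 h was replicate 2 for 7 members (Pax6, Foxe3, Prox1, Sox1, Maf, Pitx3 and Six3) and replicate 1 for Sox2, Meis2 and Tfap2a. Replicate 3 was the highest 24 h library for 8 members. At 0 h, replicate 2 was the lowest library for 9 members, all but Pax6, and replicate 1 was the highest for 6 members and replicate 3 for 4. Within each time replicate 2 also held the most retinal marker RNA, and replicate 3 the least. The crystallin share of counts at 0 h was highest in replicate 1 (20.2%) and lowest in replicate 2 (12.9%), as for most members. At 24 h it was highest in replicate 3 (8.72%) but lowest in replicate 1 (6.92%). The part of lens or retinal content in the shared order of the libraries was not tested. In the fit with the retinal marker level as a covariate 9 members were called lower, Pax6 being the added gene, and Tfap2a was not.

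**Figure D3:**
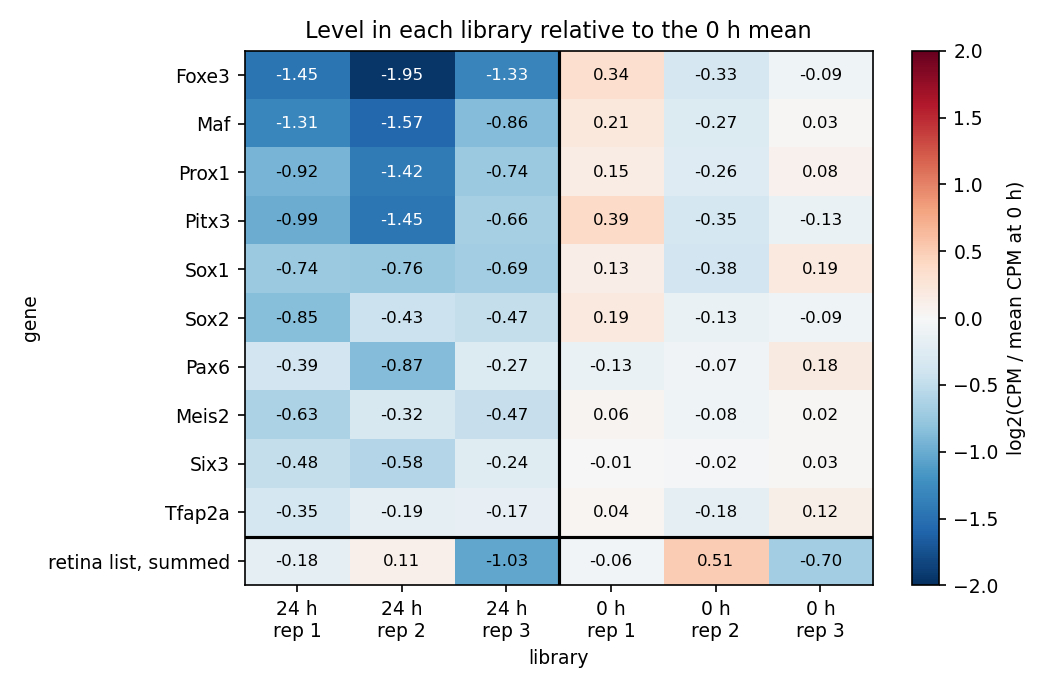
Log2 ratio of each factor's CPM in each library to its mean CPM at 0 h (colour and printed value), 24 h libraries on the left and 0 h libraries on the right, with the summed photoreceptor and retina markers in the bottom row. Foxe3 reaches -1.95 in 24 h replicate 2, where the retinal sum is at 0.11, while the retinal sum is lowest (-1.03) in 24 h replicate 3.

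Per length of transcript counted, given as the deposited RPKM (reads scaled to counted gene length and library total), the factors spanned a wide range of levels. At 24 h Pax6 stood highest, at 90.0 ± 15.6 RPKM (SD, n = 3), above Prox1 at 54.0 ± 10.8 RPKM in every library. Maf at 42.8 ± 10.3 RPKM and Foxe3 at 33.3 ± 6.01 RPKM followed, and their libraries overlapped each with its neighbour. Tfap2a (26.1 ± 3.10 RPKM), Pitx3 (24.4 ± 5.94 RPKM) and Six3 (23.2 ± 2.72 RPKM) could not be ranked against each other at 24 h, since their libraries overlapped. Meis2 (16.7 ± 2.79 RPKM), Sox2 (12.7 ± 2.61 RPKM) and Sox1 (10.4 ± 0.591 RPKM) were lowest, and here too neighbours overlapped.

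At 0 h the top of the order was a group of 4 near each other, Pax6 at 120.1 ± 14.5 RPKM, Prox1 at 102 ± 7.53 RPKM, Maf at 93.8 ± 8.85 RPKM and Foxe3 at 92.2 ± 16.6 RPKM, each overlapping the next. Pitx3 (45.9 ± 9.87 RPKM) lay apart from its neighbours on both sides. Six3 (29.7 ± 2.103 RPKM) and Tfap2a (28.9 ± 1.36 RPKM) overlapped, Meis2 (21.7 ± 0.609 RPKM) lay apart from both its neighbours, and Sox2 (17.7 ± 1.51 RPKM) and Sox1 (16.1 ± 2.24 RPKM) overlapped. The length used for Foxe3 was 867 bases, its coding region only, whereas RefSeq gives the gene a longer span, so its RPKM rests on part of the transcript. Of the summed RPKM of the 10 factors, Foxe3 made up 9.18% to 10.6% at 24 h and 14.8% to 18.7% at 0 h, and Pax6 made up 25.0% to 28.8% at 24 h and 17.4% to 23.2% at 0 h. Tfap2a went the same way as Pax6, with 7.02% to 9.69% at 24 h and 4.74% to 5.35% at 0 h, and in none of these 3 did the times overlap. Nor did they for Maf and Prox1, whose shares were lower at 24 h, or for Six3 and Meis2, whose shares were higher. Shares of the summed RPKM are tied to each other, so a higher share is not a higher level. That sum itself, scaled to library totals without TMM, was 334 ± 48.5 RPKM at 24 h and 568 ± 29.3 RPKM at 0 h (SD, n = 3).

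Ratios of 2 genes within a library show unequal change free of library scaling, but not free of the mix of tissues in a library. Pax6 and Prox1 RNA can also come from the other eye tissues named above, and that part of these ratios was not tested. The log2 ratio of Foxe3 to Pax6 counts was -3.52, -3.53 and -3.51 in the 24 h libraries, against -1.99, -2.71 and -2.73 in the 0 h libraries. It was almost the same in all 3 libraries at 24 h, although each gene alone varied there, and the difference between times was -1.04. The ratio of Maf to Pax6 differed by -0.73 and that of Prox1 to Pax6 by -0.51, in both cases with no overlap between times. The ratio of Sox1 to Sox2 was 0.45 ± 0.23 at 24 h and 0.58 ± 0.27 at 0 h (SD, n = 3), overlapping, and the difference of -0.13 turned to 0.01 without 0 h replicate 3. For 10 ratios in all the times were set against each other by a two-sided exact permutation test, 4 of them named together with the other tests and 6 chosen after their values were seen. The 4 are those given in this paragraph. The 6 are given below, and their lack of overlap is a description only. With 3 against 3 libraries the smallest possible p is 0.1, which 9 of the 10 ratios reached (adjusted p = 0.111 over the 10), the exception being Sox1 to Sox2 (exact p = 0.6).

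At 3 of the loci a long noncoding gene fell further than the factor beside it. Sox2ot, a noncoding gene in whose intron Sox2 lies on the same strand (chromosome 3, 34560381 to 34677993), had 30.7, 26.1 and 49.9 CPM at 24 h, against 255, 190.4 and 248 CPM at 0 h. The groups lay far apart, and Sox2ot fell 6.49-fold (log2 fold change -2.70 ± 0.26 SE, adjusted p = 0.000224). Six3os1, read from the opposite strand beside Six3 (chromosome 17, 85601932 to 85618396), had 86.2, 70.7 and 90.7 CPM at 24 h, against 222, 283 and 292 CPM at 0 h. It fell 3.22-fold (adjusted p = 0.00028).

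Gm5607, which RefSeq lists as Sox1ot and whose span contains Sox1 on the same strand (chromosome 8, 12385771 to 12436732), had 19.2, 38.9 and 44.5 CPM at 24 h, against 95.9, 132 and 150.1 CPM at 0 h. It fell 3.67-fold (adjusted p = 0.00251), and these 3 noncoding genes were called lower under every one of the 15 alternatives. The log2 ratio of Sox2ot to Sox2 counts was 0.19 ± 0.50 at 24 h and 2.36 ± 0.17 at 0 h, a difference of -2.17. That of Six3os1 to Six3 differed by -1.25 and that of Gm5607 to Sox1 by -1.24, and none of the 3 overlapped between times (exact p = 0.1, the smallest possible). In the GENCODE M21 annotation no exon base of Sox2 is shared with Sox2ot, and none of Sox1 with Sox1ot. A miRNA gene on the same strand, Gm25239, shares 86 exon bases (1.78%) with Sox1. Six3 shares 106 exon bases (1.95%) with Six3os1 and 168 (3.08%) with the antisense gene Gm28528. The deposited spans of Six3 and Six3os1, however, do not overlap and lie 2438 bases apart. Antisense genes also share 133 exon bases with Prox1, 440 with Maf and up to 380 with Tfap2a (7.75% of its exon bases). Whether counting used strand was not stated. Without it, reads from shared bases that lie within a member's counted span cannot be told apart.

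**Figure D4:**
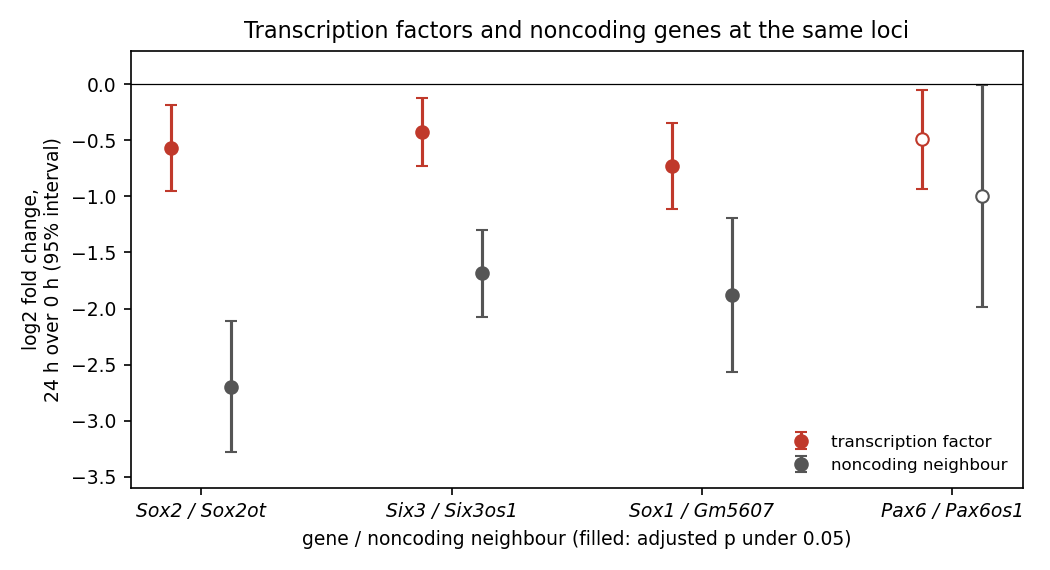
Log2 fold change at 24 h over 0 h with 95% interval for 4 factors (red, left of each pair) and the noncoding gene at the same locus (grey, right), filled where the adjusted p was under 0.05. Sox2ot (-2.70), Six3os1 (-1.69) and Gm5607 (-1.88) lie below Sox2 (-0.57), Six3 (-0.43) and Sox1 (-0.73), and the intervals of each of these 3 pairs do not overlap.

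Other genes at these loci moved less or were not called. Pax6os1, which overlaps the start of Pax6 on the opposite strand, was not called (3.54 ± 1.96 CPM at 24 h, against 7.09 ± 0.747 CPM at 0 h, adjusted p = 0.123). Elp4, downstream of Pax6, was not called either (48.0 ± 15.3 CPM at 24 h, against 66.3 ± 9.07 CPM at 0 h, adjusted p = 0.171). Foxd2os near Foxe3 (adjusted p = 0.202) and Gbf1 near Pitx3 (adjusted p = 0.161) were not called. Elovl3, whose last bases overlap those of Pitx3 on the opposite strand, fell 1.99-fold (adjusted p = 0.0225), with 5.45 ± 0.865 CPM at 24 h and 10.9 ± 1.51 CPM at 0 h. That call did not survive the loss of replicate 1 of either time or of 0 h replicate 3, and its adjusted p over the alternatives ran from 0.0079 to 0.151. Small RNA rows whose deposited spans cover the loci of Pax6, Meis2 or Pitx3 (Mir3110, Mir3084, Mir3084-2 and Snora19) had 0 counts in all libraries.

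Relatives and partners of the 10 factors moved in both directions. Of 40 listed, with earlier results of these data known, 24 passed the low-count filter. Of these, 4 were called higher and 6 lower. That is 16.7% higher and 25.0% lower, against 15.2% and 13.0% of all genes. With library totals as the only scaling the split was 4 higher and 2 lower. Their median log2 fold change was -0.05. Maff, a small Maf protein without the activation domain of Maf, rose 5.29-fold (adjusted p = 0.00239), with 21.1, 50.8 and 21.6 CPM at 24 h against 5.51, 7.31 and 4.76 CPM at 0 h. Sox9, an HMG-box protein of the SOXE group, rose 2.84-fold (adjusted p = 0.00166), with 76.1, 122 and 85.5 CPM at 24 h against 26.1, 40.2 and 33.6 CPM at 0 h. For both genes every 24 h library lay above every 0 h library, and both calls held under all 15 alternatives.

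Within families the direction thus differed between members. The log2 ratio of Maf to Maff differed by -3.53 between the times and that of Sox2 to Sox9 by -2.07, with no overlap of libraries in either. Both ratios were chosen after their values were seen, so they describe the calls and add no support to them. Pbx3, a TALE homeodomain partner of the Meis proteins, had 50.8, 46.2 and 51.5 CPM at 24 h, against 107, 81.8 and 100.5 CPM at 0 h. It fell 1.95-fold (adjusted p = 0.00169), and its call held under all 15 alternatives. Meis1 averaged 50.8 CPM at 24 h, against 46.3 CPM at 0 h (adjusted p = 0.573), and the log2 ratio of Meis2 to Meis1 differed by -0.61 without overlap. Pknox1, another TALE protein, rose by 0.48 on the log2 scale (adjusted p = 0.0279), a call lost when any library was left out, and Six5 fell 1.61-fold (adjusted p = 0.0149), a call that needed 24 h replicate 1 and 0 h replicates 2 and 3. Foxc1 was also called higher, and Sox12, Six6 and Pbx2 were among those called lower. Of the list's 10 calls, 4 to 6 were made when 1 library was left out, and 4 against a 1.5-fold change.

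Other regulators of lens development fell more often than they rose. All 38 listed, also with earlier results of these data known, passed the filter. Of these, 2 were called higher and 10 lower, with a median log2 fold change of -0.26. That is 5.26% higher and 26.3% lower, against 15.2% and 13.0% of all genes. Tdrd7 and Celf1, RNA-binding proteins whose loss causes cataract in mice, fell 2.28-fold (adjusted p = 0.0019) and 2.24-fold (adjusted p = 0.00288). Tdrd7 had 195, 188 and 191 CPM at 24 h, against 534, 349 and 424 CPM at 0 h, so its 24 h libraries were close together. Hey1, a target of Notch signalling, fell 2.54-fold (adjusted p = 0.00175), while the Notch ligand gene Jag1 rose 2.27-fold (adjusted p = 0.011), a call not made against a 1.5-fold change. Etv4, an ETS factor downstream of FGF receptors, rose 2.59-fold to 12.2 ± 3.20 CPM at 24 h, against 4.69 ± 1.08 CPM at 0 h (adjusted p = 0.0109). The other genes called lower were Hsf4, Gata3, Mab21l1, Rxra, Notch2, Rax and Id2.

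Many lens genes known as targets of these factors were lower. Of 29 listed, 26 passed the filter, and 17 were called lower, 0 higher and 9 not called, that is 65.4% lower against 13.0% of all genes, with a median log2 fold change of -1.54. The list was written with earlier results of these data known, so its direction is a description. Mip, the water channel of fiber membranes, had 573 ± 130.3 CPM at 24 h, against 2810 ± 805 CPM at 0 h, a 4.90-fold fall (adjusted p = 0.000643). Lim2, a fiber membrane protein, fell 3.39-fold (adjusted p = 0.000621). Cdkn1c, a cell cycle inhibitor that depends on Prox1 in lens fibers of mice, had 27.2, 31.1 and 31.9 CPM at 24 h, against 129, 85.0 and 81.4 CPM at 0 h, a 3.27-fold fall (adjusted p = 0.000538). These 3 calls held under all 15 alternatives. Hspb1, a small heat shock protein gene, differed in the other direction, with 119.6, 146 and 63.4 CPM at 24 h, against 71.4, 15.6 and 18.7 CPM at 0 h, and its groups overlapped. It was not called (log2 fold change 1.63 ± 0.56 SE, adjusted p = 0.0597), but it was called higher in 7 of the 15 alternatives, with adjusted p from 0.00474 to 0.17. Some fiber genes differed widely between libraries of a time. Crygd, which was not called, had 243, 1.17 and 0.529 CPM at 24 h, against 558, 13.4 and 59.8 CPM at 0 h. Crygb, Crygc and Bfsp1 were likewise highest in replicate 1 at each time, whereas Mip was highest in replicate 2 at 24 h and replicate 3 at 0 h. The share of counts from crystallin genes, given above, was lower at 24 h, like the 17 genes called. The part of fiber RNA in these values was not tested.

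**Figure D5:**
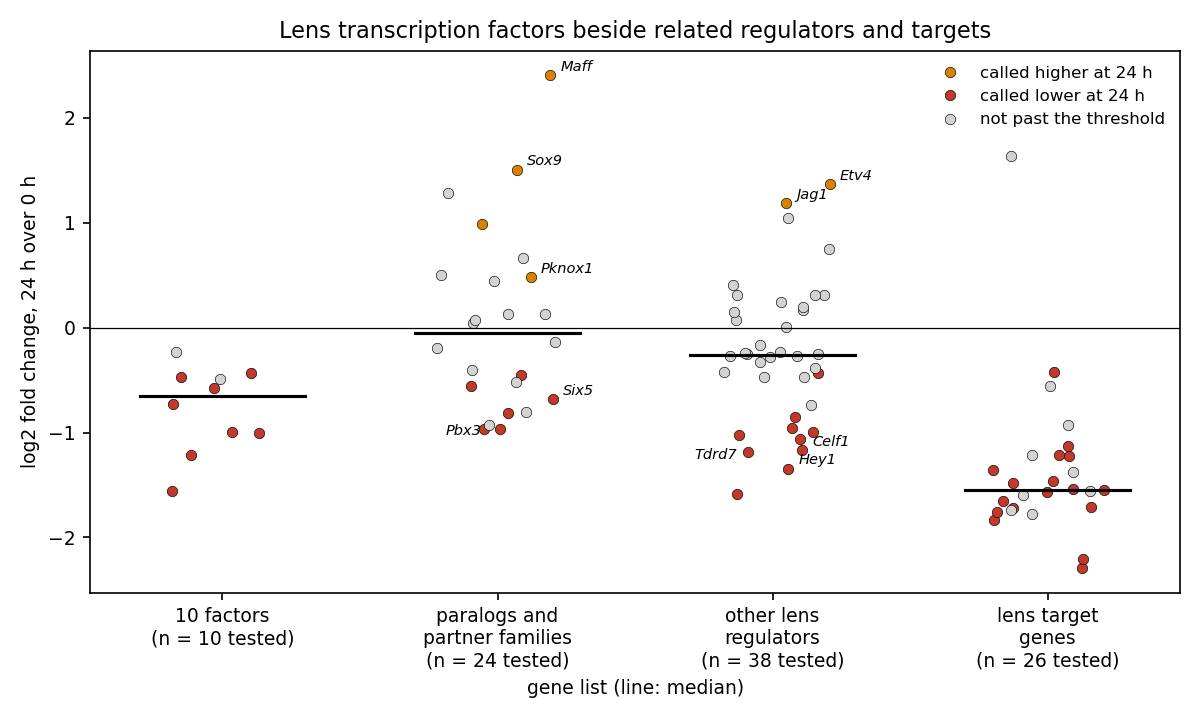
Log2 fold change at 24 h over 0 h for the tested genes of the 10 factors, 24 paralogs and partners, 38 other lens regulators and 26 lens target genes, coloured by whether the adjusted p was under 0.05, with a line at each median. The factors lie between -1.55 and -0.23 with a median of -0.65, whereas paralogs and other regulators lie on both sides of 0.

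The 2 genes most alike in pattern were sought for each factor among 9699 tested genes averaging at least 10 CPM, as Pearson's r of log2(CPM + 0.5) over the 6 libraries. These values describe 6 points in 2 groups and carry no test. For Foxe3 they were Rmnd5a (r = 0.997) and Dmrta2 (r = 0.997), for Maf Msx2 (r = 0.998) and Arhgap31 (r = 0.998), and for Prox1 Aldh1a1 (r = 0.999) and 2010012O05Rik (r = 0.998). For Pitx3 they were Hmgn2 and Mzt1, for Sox1 Parp16 and Bicc1, for Sox2 Sgsm2 and 4933431E20Rik, and for Pax6 Dnajc18 and Rc3h2. For Six3 they were Cyp39a1 and Arhgef10, for Meis2 Fam107b and Tanc2, and for Tfap2a Ccdc77 and Reep1. Of these, Aldh1a1, a retinaldehyde dehydrogenase gene, averaged 419 CPM at 24 h, against 1170.1 CPM at 0 h (adjusted p = 0.00695). The homeobox gene Msx2 averaged 9.65 CPM at 24 h, against 24.8 CPM at 0 h (adjusted p = 0.00501). Others among the alike genes were not called, such as Rc3h2 (log2 fold change -0.08, adjusted p = 0.646) and Sgsm2 (log2 fold change -0.26, adjusted p = 0.166).

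RNA of other eye tissues and of blood cells was read from marker lists, and apart from the covariate fit above its part in these results was not tested. The counts called below stand beside 15.2% of all genes tested called higher and 13.0% called lower. Of the 18 photoreceptor and retina markers 0 were called higher and 1 lower, and their sums overlapped between the times. Of 16 pigment and ciliary epithelium markers tested, 3 were higher and 6 lower, with sums of 198 to 1319 CPM at 24 h, against 608 to 750.3 CPM at 0 h. By mean over all 6 libraries the highest of them were Dct, an enzyme of pigment synthesis (269 ± 213 CPM at 24 h, against 47.3 ± 25.2 CPM at 0 h, overlapping), and Col9a1 (31.4 ± 11.5 CPM at 24 h, against 222 ± 10.6 CPM at 0 h). Corneal and conjunctival markers, most of whose sum was Aldh3a1, came to 364 to 716 CPM at 24 h, against 764 to 1125 CPM at 0 h, with 3 of 7 tested called higher (Krt5 among them) and 1 lower, Aldh3a1. Leukocyte markers summed to 149.6 to 295 CPM at 24 h, against 50.0 to 111 CPM at 0 h, with 5 of 9 tested called higher and 1 lower, Csf1r, which with Lyz2 had the highest mean over all 6 libraries. Vessel and stroma markers, of which Pdgfrb and Myh11 had the highest means over all 6 libraries, summed to 96.9 to 224 CPM at 24 h, against 163 to 191 CPM at 0 h, with 4 of 10 tested called higher and 1 lower, Pdgfrb, and Kera had 0 counts in all libraries.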

How the data were processed

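RNA-seq of 6 libraries (3 at each time) was used. Each deposited table gives raw gene counts as whole numbers, and RPKM values that equal the count divided by the deposited gene length and the summed gene counts, per the file headers and a recomputation. The submitters' processing notes name HTSeq 0.6.1p1, edgeR 3.16.5, TopHat2 2.1.0, SAMtools 1.4, Trim Galore 0.4.4, bedtools 2.17 and mm10. The annotation and the use of strand are not stated there.

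Genes were filtered with filterByExpr at its defaults (13956 kept, at least 99.82% of counts in each library), scaled by TMM and tested with edgeR 4.0.16 (R 4.3.3) quasi-likelihood, 24 h against 0 h, two-sided and without covariates. Genes with a Benjamini-Hochberg adjusted p under 0.05, over all those tested, were called. SE is the log2 fold change over the square root of F. Replicate-level values are TMM-scaled CPM, and 95% intervals rest on the spread between libraries. RPKM was used only to compare levels between genes, with no test. A floor of 3 counts is 0.324 to 0.372 CPM at 24 h and 0.276 to 0.343 CPM at 0 h and covers counting error only.

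The fitting code was tested on simulated data. Members and gene lists were chosen with earlier results of these data known. The genes named are the 10 members, the 3 lowest p in each direction in the 3 lists of regulators and targets, the 2 highest genes of each marker list, the 2 most alike genes of each member, and genes overlapping a member or within 5000 bases. Some genes that this rule picks are not reported here. Other genes were chosen after their values were seen. DESeq2 1.42.0 and limma-voom (limma 3.58.1) were alternatives. Exons and strands come from GENCODE M21, promoters from RefSeq.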

Additional observations from a re-analysis of the deposited data

How the results depend on the processing

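All 10 factors had log2 fold changes below 0 in every one of the 15 alternative fits. Of 150 such values 118 stayed on the same side of the threshold, 30 lost a call and 2 gained it (Pax6, with the retinal covariate and with the replicate block). The members called, 8, numbered 5 with library totals only, 2 against a 1.5-fold change (Foxe3 and Maf), and 3 to 7 with 1 library left out, where fewer samples are tested. Paralogs and partners called, 10, numbered 6 with library totals only, 4 against a 1.5-fold change and 4 to 6 with 1 library left out. Other regulators, 12, numbered 5 against a 1.5-fold change and 9 to 13 with 1 library left out. Targets, 17, numbered 9 with crystallins left out, where those genes are not tested, and 14 to 18 with 1 library left out. Over all genes 3942 calls became 1689 against a 1.5-fold change and 2717 to 3545 with 1 library left out. The difference in the Sox1 to Sox2 ratio, -0.13, ran from -0.26 to 0.014 with 1 library left out (the highest without 0 h replicate 3), and the cause was not tested. The differences of the other 9 ratios kept their sign.

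Libraries of the 2 times share replicate numbers in the labels, with nothing to say that a number marks a shared animal or day. Deviations from the group means correlated at 0.09, 0.22 and 0.40 for replicates 1, 2 and 3, and at -0.35 to 0.17 between libraries of unlike number. The main fit did not pair the samples, because the labels name no pairing. Whether a number marks a shared animal or day was not tested. With the replicate block 9 members were called, 4489 genes in all, and Pax6 had an adjusted p of 0.041. Only for replicates 2 and 3 did the 24 h library correlate best with its own number. The lowest count of a member in a library was 194.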
